A study of Mus musculus with 87 samples.

Results

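Blastocysts were compared with morulae in mouse embryos whose genotype label is pWT, from a study of semi-cloned mice. The comparison rests on 7 of the 87 libraries of the series, chosen by their labels: 4 of pWT blastocysts and 3 of pWT morulae. In semi-cloning, a haploid embryonic stem cell that carries only a genome of paternal origin is put into an oocyte where a sperm would otherwise deliver the father's chromosomes. The title of the series speaks of donor cells that lack DNA methylation, and some of its other samples carry Dnmt genotypes. For the embryos used here the labels give the stage and the name pWT, with no allele or agent, and do not say whether the donor cells had DNA methylation. In the deposited tables the columns of all pWT embryo libraries are named O48, and they were joined to pWT samples by stage and number because every other embryo column carries the name pIR. The strain, the donor cell line, the age of the embryos in hours and the number of embryos behind each library are left unsaid. Set beside these libraries are 4 blastocyst and 4 morula libraries labelled pIR, a second genotype label whose abbreviation the sources do not spell out, and 4 pWT libraries of the 2C stage, that is, of embryos with a pair of cells.

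In the mouse morula the cells flatten against each other and gain an apical and a basal side. Outer cells become trophectoderm, an epithelium that seals itself with junctions, pumps fluid inwards and later gives rise to the placenta. Inner cells form the inner cell mass, which then sorts into the epiblast, the source of the body, and the primitive endoderm, which lays down basement membrane and builds the yolk sac. The transcription factors of the trophectoderm are switched on by TEAD proteins when Hippo signalling is low. FGF signals divide the inner cells between epiblast and primitive endoderm.

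RNA was read as counts per gene, with 14.9, 11.5, 9.7 and 10.4 M counts in blastocyst libraries 1 to 4 and 16, 7.7 and 12.5 M in morula libraries 1 to 3. Between 13597 and 14289 genes were detected in blastocysts and between 12036 and 12952 in morulae. The 50 most abundant genes took 14.5% to 15.3% of the counts in blastocysts and 17.99% to 19.001% in morulae. Stage was the first principal component over pWT and pIR libraries (47.1% of the variance). Along the second (11.8%) the pWT libraries, at 9.56 to 58.5, lay apart from the pIR libraries, at −49.1 to 3.70, and morula library 2 of pWT, the shallowest of the 7, stood apart on the third (6.34%). Levels are given as CPM, counts scaled to a common library total with TMM factors, in the order of the library numbers. Since CPM grows with transcript length, levels are compared between libraries and not between genes. Nothing in the labels says that libraries of one stage came from separate embryos or pools, so each p-value measures the spread between these libraries, which may be technical.

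Marker sums of trophectoderm and primitive endoderm were higher in every blastocyst library than in any morula library, and those of inner cell mass or epiblast overlapped. The summed level of 17 trophectoderm markers lay between 3159 and 5489 CPM in blastocysts and between 743 and 1070 CPM in morulae. For 10 primitive endoderm markers the sums ran from 372 to 648 CPM in blastocysts and from 234 to 320 CPM in morulae, with Foxa2 at 0 in all 7 libraries. Such sums lean on abundant members, among them Krt8, Krt18 and Id2 for trophectoderm and Gata6 for primitive endoderm. Not every marker rose: as given below, Hand1 and Tead4 fell, and Cdx2, Cldn4, Aqp3 and Gata6 did not pass. For 12 markers of inner cell mass or epiblast they ran from 1120.0 to 1241 CPM in blastocysts and from 898 to 1630.3 CPM in morulae. Markers of cells that could travel with an embryo were also summed. Of 10 cumulus and granulosa markers 7 were at 0 in both stages (Has2, Ptx3, Tnfaip6, Amh, Inhba, Cyp19a1 and Fshr), and the sums reached 5.74 CPM in blastocysts and 3.09 CPM in morulae. Feeder fibroblast markers summed to at most 8.89 CPM in blastocysts and 3.50 CPM in morulae, with Col1a2, Col3a1, Dcn, Lum and Twist2 at 0 in both. Blood markers reached 1.02 CPM in blastocysts and 8.63 CPM in morulae, with Hbb-bs, Hbb-bt and Ptprc at 0, and the 7 oocyte markers in the tables (8 listed) summed to at most 11.8 CPM in blastocysts and 23.5 CPM in morulae. Over longer lists of the same cell types, 12 cumulus and granulosa genes summed to 8.91 to 20.5 CPM in blastocysts and 20.01 to 34.4 CPM in morulae, with 1 of 2 tested members lower in blastocysts and none higher. The sums of 12 feeder fibroblast genes reached 8.89 CPM in blastocysts and 10.9 CPM in morulae, and those of 9 blood genes 1.65 CPM in blastocysts and 9.13 CPM in morulae, with no call among the 3 and 1 tested. The part of such cells in the results was not tested.

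Between the stages 1681 genes were higher and 1488 lower in blastocysts, of 12565 tested (edgeR quasi-likelihood F test, Benjamini-Hochberg adjusted p under 0.05). These are 13.4% and 11.8% of the genes tested, 25.2% in all, and they are the background against which the gene lists below are read. The median log2 fold change over all genes tested was 0.14. Among the genes tested, 901 (7.17%) rose and 275 (2.19%) fell by a log2 fold change of at least 2. These counts cannot say whether large rises were more common, because there were more blastocyst than morula libraries. Under the filter on low counts, a gene silent in morulae could enter with a blastocyst library to spare. A gene silent in blastocysts needed enough reads in every morula library. Of all rising genes 275 were at 0 in every morula and 13 falling genes were at 0 in every blastocyst, and for these the fitted fold change depends on the prior count of the model. In 3045 called genes (24.2% of those tested) the highest library of one stage lay below the lowest of the other. Over all genes tested, called or not, 20.9% had every blastocyst above every morula and 16.3% every blastocyst below. The calls depended on which library was left out, and the number of genes tested changed too. Leaving out blastocyst library 2 gave 1084 higher and 1085 lower genes of 12082 tested. Leaving out blastocyst library 4 gave 1094 and 1124 of 12135, while without morula library 2 there were 1639 and 1420 of 13268. Past the threshold with each of the 7 libraries left out in turn were 890 higher and 929 lower genes (7.08% and 7.39% of those tested), called stable below. The filter on low counts was run again each time. A gene that then failed it was not tested, and its call is counted as lost and as not stable. The lists described below count members tested, and the members not tested had too few reads in these 7 libraries or were not in the table.

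**Figure D1:**
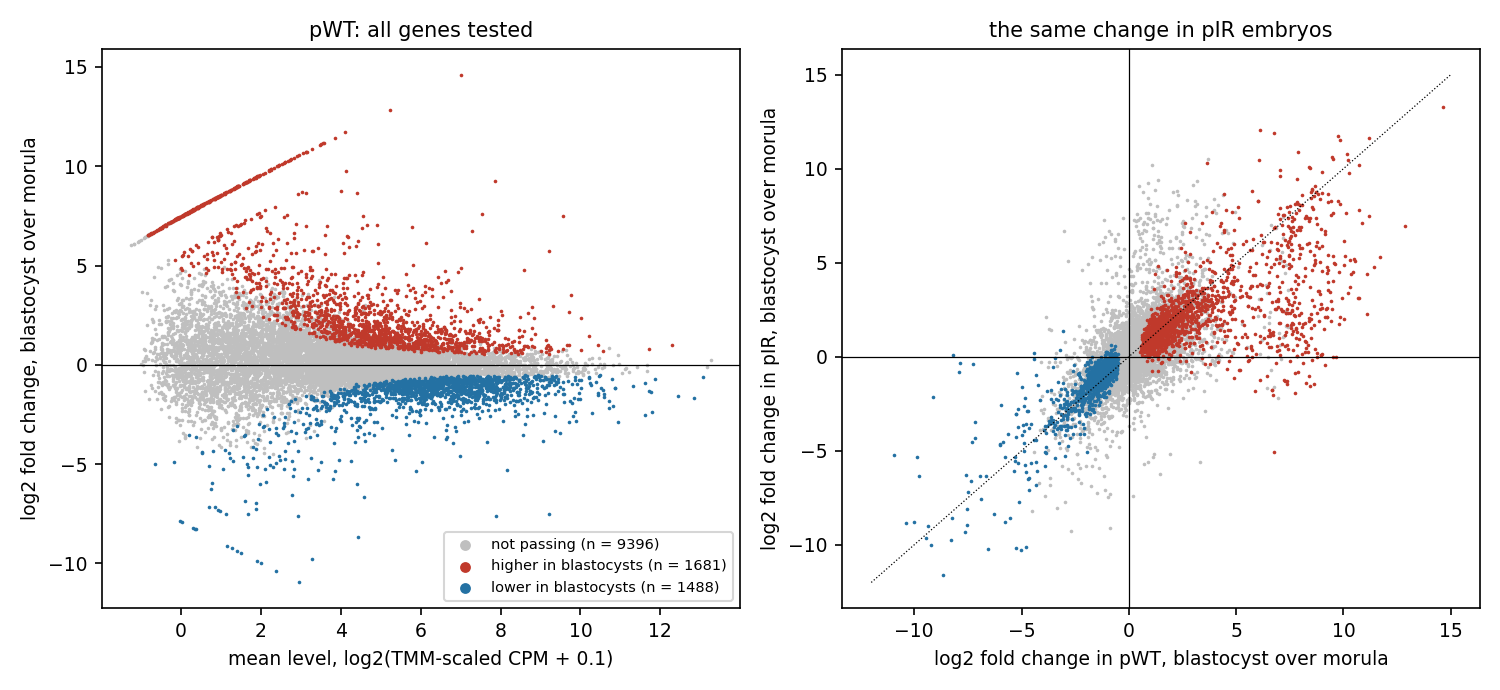
The left panel plots, for each of 12565 genes, the log2 fold change of pWT blastocysts over morulae against the mean level over the 7 libraries (log2 of TMM-scaled CPM + 0.1), with the 1681 higher genes in red and the 1488 lower genes in blue. The straight upper edge is formed by genes at 0 in all morulae, whose fitted fold change depends on the added prior count, and the right panel sets the pWT fold change against that of pIR embryos, with a dotted line of equal change.

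Most regulators of trophectoderm on the list were higher in blastocysts. Of 17 members tested (18 listed), 9 rose and 2 fell, against the 13.4% and 11.8% of all genes, and the 9 rises were stable. Their median log2 fold change was 2.90, beside 0.14 over all genes. Gata3, a transcription factor that drives trophectoderm genes beside Cdx2 (chromosome 2, 9857078–9890034, mm10), stood at 321, 332, 294 and 375 CPM in blastocysts, against 128, 68.6 and 82.4 CPM in morulae. It was higher in every blastocyst library than in any morula library (log2 fold change 1.85 ± 0.23, edgeR adjusted p = 3.37e-04). Tfap2a, an AP-2 factor, was nearly silent in morulae, with 32.1, 41.2, 40.04 and 36.2 CPM in blastocysts and 0.933, 0 and 0.396 CPM in morulae (log2 fold change 6.22 ± 0.67, edgeR adjusted p = 1.42e-04). Fewer cells of a kind and less RNA per cell cannot be told apart in whole embryos, here or below.

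Gata2, a partner of Gata3 in placental gene control, stood at 31.4, 24.1, 30.5 and 41.3 CPM in blastocysts, against 1.34, 0 and 0 CPM in morulae (log2 fold change 5.95 ± 0.97, edgeR adjusted p = 0.001401). Eomes, a T-box factor needed for trophoblast stem cells, had 27.9, 34.5, 39.3 and 37.3 CPM in blastocysts, against 2.57, 1.97 and 0 CPM in morulae (log2 fold change 4.53 ± 0.83, edgeR adjusted p = 0.00272). Both were low or at 0 in each morula library and did not overlap between the stages. Id2, an inhibitor of basic helix-loop-helix factors, reached 549.9, 609, 984 and 693 CPM in blastocysts, against 26.9, 53.6 and 203 CPM in morulae (log2 fold change 2.8997 ± 0.58, edgeR adjusted p = 0.00434), with morula library 3 well above the other morulae. Bmp4, a secreted signal, and Elf5, a trophoblast factor that keeps these cells in their lineage, were at 0 in all 3 morulae. Bmp4 stood at 9.97, 15.8, 16.3 and 40.5 CPM in blastocysts (edgeR adjusted p = 3.04e-04). Its mean was at least 261-fold higher, against a floor of 3 counts over the 3 morula libraries. Such folds, here and below, set the mean of a stage against the floor, and single libraries can lie lower. Elf5 stood at 0.724, 1.83, 0.804 and 11.3 CPM in blastocysts (edgeR adjusted p = 0.0169). Its mean was at least 46.2-fold higher on the same floor, and library 4 held most of it.

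Not every trophectoderm factor followed. Cdx2, the caudal-type factor that defines the lineage, had 5.43, 8.07, 7.69 and 12.9 CPM in blastocysts and 3.79, 1.36 and 7.28 CPM in morulae. The ranges overlapped, since morula library 3 reached the level of the blastocysts, and the difference did not pass (log2 fold change 1.05 ± 0.69, edgeR adjusted p = 0.307). Tfap2c, an AP-2 factor already active in the morula, had 81.7 ± 11.5 CPM in blastocysts (SD, n = 4) and 104 ± 19.2 CPM in morulae (SD, n = 3) and did not pass either (edgeR adjusted p = 0.2795). Hand1, a factor of later trophoblast giant cells, went the other way, with 5.63, 2.85, 5.99 and 0 CPM in blastocysts, against 66.2, 59.3 and 30.2 CPM in morulae (log2 fold change -3.84 ± 0.85, edgeR adjusted p = 0.00768). Tead4, the TEAD protein that starts the lineage, fell to 53.6, 46.3, 38.2 and 40.4 CPM in blastocysts, against 70.2, 91.6 and 71.3 CPM in morulae (log2 fold change -0.79 ± 0.23, edgeR adjusted p = 0.02701). Its groups did not overlap, but its call was lost without blastocyst library 2, 3 or 4 or morula library 2.

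Of 25 keratin and cell junction genes tested (27 listed), 13 rose and none fell, with a median log2 fold change of 1.67, and 12 of the rises were stable. Krt18 and Krt8 encode the paired keratins that make the filaments of the first embryonic epithelium. Krt18 (chromosome 15, 102028180–102032027) stood at 877, 1026, 1908 and 1902 CPM in blastocysts, against 159, 105 and 110.5 CPM in morulae (log2 fold change 3.53 ± 0.33, edgeR adjusted p = 7.37e-05). Krt8 (chromosome 15, 101996698–102004482) stood at 887, 1101, 1699.8 and 1521 CPM in blastocysts, against 282, 174 and 175 CPM in morulae (log2 fold change 2.65 ± 0.28, edgeR adjusted p = 1.13e-04). In both genes libraries 3 and 4 were the high blastocysts and each blastocyst was above each morula. A processed copy of Krt8 is annotated, and how the authors treated reads with several matches is not stated.

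As examples of members that rose, the 250 bases before the annotated start of Gata3, Krt18 and Krt8 are shown, from RefSeq on build GRCm38.p6 (mm10), 5′ to 3′ on the strand of the gene. Capitals mark matches to GCCNNNGGC, the AP-2 motif, in Gata3 and Krt18, and to AGATAA, which GATA factors bind, in Krt8. The windows are chr2:9878601-9878850 on the minus strand, chr15:102027966-102028215 on the plus strand and chr15:102004343-102004592 on the minus strand.
Gata3: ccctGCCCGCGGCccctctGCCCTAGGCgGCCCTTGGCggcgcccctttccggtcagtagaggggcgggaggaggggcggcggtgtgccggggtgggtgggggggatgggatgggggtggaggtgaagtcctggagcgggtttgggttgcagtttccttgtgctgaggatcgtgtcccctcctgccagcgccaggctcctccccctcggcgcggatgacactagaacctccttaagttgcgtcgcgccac
Krt18: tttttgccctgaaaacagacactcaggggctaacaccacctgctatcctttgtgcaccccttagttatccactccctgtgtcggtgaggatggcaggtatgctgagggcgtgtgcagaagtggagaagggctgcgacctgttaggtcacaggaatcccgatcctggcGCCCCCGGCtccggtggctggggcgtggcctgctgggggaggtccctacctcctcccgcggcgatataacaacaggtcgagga
Krt8: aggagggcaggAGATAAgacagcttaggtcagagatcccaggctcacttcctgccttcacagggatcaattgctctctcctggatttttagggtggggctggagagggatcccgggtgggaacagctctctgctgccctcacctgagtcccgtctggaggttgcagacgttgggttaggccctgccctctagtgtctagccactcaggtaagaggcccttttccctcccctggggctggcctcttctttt
Both strands were searched. The window of Gata3 held 3 matches to GCCNNNGGC, which began 246, 231 and 221 bases before the start, and that of Krt18 held 1, which began 83 bases before it. The RefSeq starts used here lie inside the GENCODE spans given above, and so do the whole window of Gata3 and the ends of the other windows that are next to the start. AGATAA in the Krt8 window began 239 bases before the start. Of all 27025 promoter windows 13.6% held GCCNNNGGC and 10.3% held AGATAA, so matches are common. Among windows of genes higher in blastocysts (n = 1333) 22.8% held GCCNNNGGC, against 18.9% of those of lower genes (n = 1202) and 20.3% of all genes tested (n = 9944). For AGATAA the shares were 6.002% of higher, 5.99% of lower and 5.84% of all tested genes. GGAATG, the TEAD motif, was in 11.6% of windows of higher, 9.82% of lower and 10.4% of all tested genes. TTTGCAT, the core of the octamer bound by Pou5f1, was in 2.78% of higher, 2.08% of lower and 3.24% of all tested genes.

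Components of several kinds of cell contact rose. Cdh1, the E-cadherin of adherens junctions, stood at 263, 231, 209.8 and 219 CPM in blastocysts, against 88.9, 63.9 and 61.7 CPM in morulae (log2 fold change 1.703 ± 0.20, edgeR adjusted p = 2.37e-04). It was about evenly high over the 4 blastocysts, with no overlap. The desmosomal cadherin Dsc2 was at 0 in morula libraries 1 and 3, with 20.9, 34.4, 33.2 and 25.4 CPM in blastocysts, against 0, 1.48 and 0 CPM in morulae (log2 fold change 6.13 ± 1.12, edgeR adjusted p = 0.002705). Its partners Dsg2 (log2 fold change 3.18 ± 0.55, adjusted p = 0.00189) and Dsp, the desmosomal plaque protein (log2 fold change 2.28 ± 0.43, adjusted p = 0.00329), rose with it. Epcam, an epithelial adhesion molecule, reached 931, 1108, 1164 and 842 CPM in blastocysts, against 92.7, 102 and 197 CPM in morulae (log2 fold change 2.96 ± 0.29, edgeR adjusted p = 8.77e-05), with morula library 3 above the other morulae. The gap junction connexin Gjb5 (log2 fold change 3.51 ± 0.91, adjusted p = 0.0164) rose as well, a call lost without morula library 1. Several tight junction genes did not pass, among them Tjp1 (log2 fold change 0.64 ± 0.29, adjusted p = 0.133), Cldn4 (0.36 ± 0.25, adjusted p = 0.3196) and Ocln (-0.19 ± 0.34, adjusted p = 0.729), and likewise the connexin Gja1 (0.09 ± 0.23, adjusted p = 0.804).

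Polarity genes followed in part, with 7 of 15 tested members (16 listed) higher, 1 lower and a median log2 fold change of 0.97. Ezr, the ezrin that ties actin to the apical membrane, had the smallest adjusted p of the list. It stood at 162, 181, 117 and 239 CPM in blastocysts, against 11.6, 7.65 and 7.99 CPM in morulae (log2 fold change 4.28 ± 0.32, edgeR adjusted p = 2.12e-05), and its lowest blastocyst stood far above its highest morula. Llgl2, a basolateral polarity protein, had 40.5, 37.4, 48.8 and 51.3 CPM in blastocysts, against 12.1, 17.02 and 6.01 CPM in morulae (log2 fold change 1.94 ± 0.38, edgeR adjusted p = 0.00367). Prkci, an atypical protein kinase C of the apical Par complex, had 111, 85.4, 76.1 and 104 CPM in blastocysts, against 47.9, 19.7 and 29.6 CPM in morulae (log2 fold change 1.55 ± 0.31, edgeR adjusted p = 0.004097). Neither overlapped between the stages, and both calls were stable. Crb3, an apical Crumbs protein, was the member that fell (log2 fold change -1.05 ± 0.27, edgeR adjusted p = 0.0154), a call lost without blastocyst library 2. Pard6b (log2 fold change -0.11 ± 0.24, adjusted p = 0.77998) and Cdc42 (0.45 ± 0.28, adjusted p = 0.273), both linked to the Par complex, did not pass.

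Of 11 tested genes for fluid transport into the cavity (17 listed), 4 rose and 1 fell, and 2 rises were stable. Atp1b1, the beta subunit of the sodium pump, stood at 186, 211, 209 and 230.4 CPM in blastocysts, against 86.2, 59.7 and 59.7 CPM in morulae (log2 fold change 1.62 ± 0.21, edgeR adjusted p = 3.39e-04). The blastocysts were tight and well above the morulae. Aqp8, a water channel, was at 0 in all morulae and in blastocyst library 3, with 4.91, 8.002, 0 and 13.04 CPM in the 4 blastocysts (edgeR adjusted p = 0.0176). Its call was lost, or the gene was no longer tested, without blastocyst library 1, 2 or 4. The list held 2 rises without blastocyst library 2, and the fall was lost without any 1 of the 4 blastocyst libraries and without morula library 1 or 3. The water channel Aqp3 did not pass (log2 fold change 0.15 ± 0.37, adjusted p = 0.805).

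Genes for secretion and uptake by trophoblast rose in 10 of 15 tested members (20 listed), with 1 fall and a median log2 fold change of 1.88, and there were 2 falls without blastocyst library 3. Fabp3, a fatty acid carrier, reached 977, 1407, 2034 and 1868 CPM in blastocysts, against 216, 402 and 297 CPM in morulae (log2 fold change 2.37 ± 0.30, edgeR adjusted p = 3.17e-04). Lcp1, the actin bundler plastin, had 58.5, 107, 186 and 238 CPM in blastocysts, against 7.23, 8.51 and 4.91 CPM in morulae (log2 fold change 4.44 ± 0.50, edgeR adjusted p = 1.69e-04). Library 1 was the lowest blastocyst for both, and no blastocyst overlapped a morula. Lgals3, a lectin, was higher at 41.3, 51.5, 58.7 and 62.4 CPM in blastocysts, against 2.33, 0.987 and 10.3 CPM in morulae (log2 fold change 3.54 ± 0.65, edgeR adjusted p = 0.00273). Wnt7b, a secreted WNT ligand, had 43.6, 25.5, 27.8 and 31.9 CPM in blastocysts, against 4.96, 1.48 and 8.55 CPM in morulae (log2 fold change 2.68 ± 0.54, edgeR adjusted p = 0.004398). Plac1, a placental gene, had 1.96, 4.88, 3.31 and 19.96 CPM in blastocysts, against 0, 0.247 and 0 CPM in morulae (log2 fold change 6.74 ± 1.55, edgeR adjusted p = 0.00925), and lost its call without blastocyst library 4. Sfn, the epithelial 14-3-3 sigma protein, fell to 287, 439.9, 696 and 271 CPM in blastocysts, against 1398, 891 and 1272 CPM in morulae (log2 fold change -1.48 ± 0.30, edgeR adjusted p = 0.00461).

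**Figure D2:**
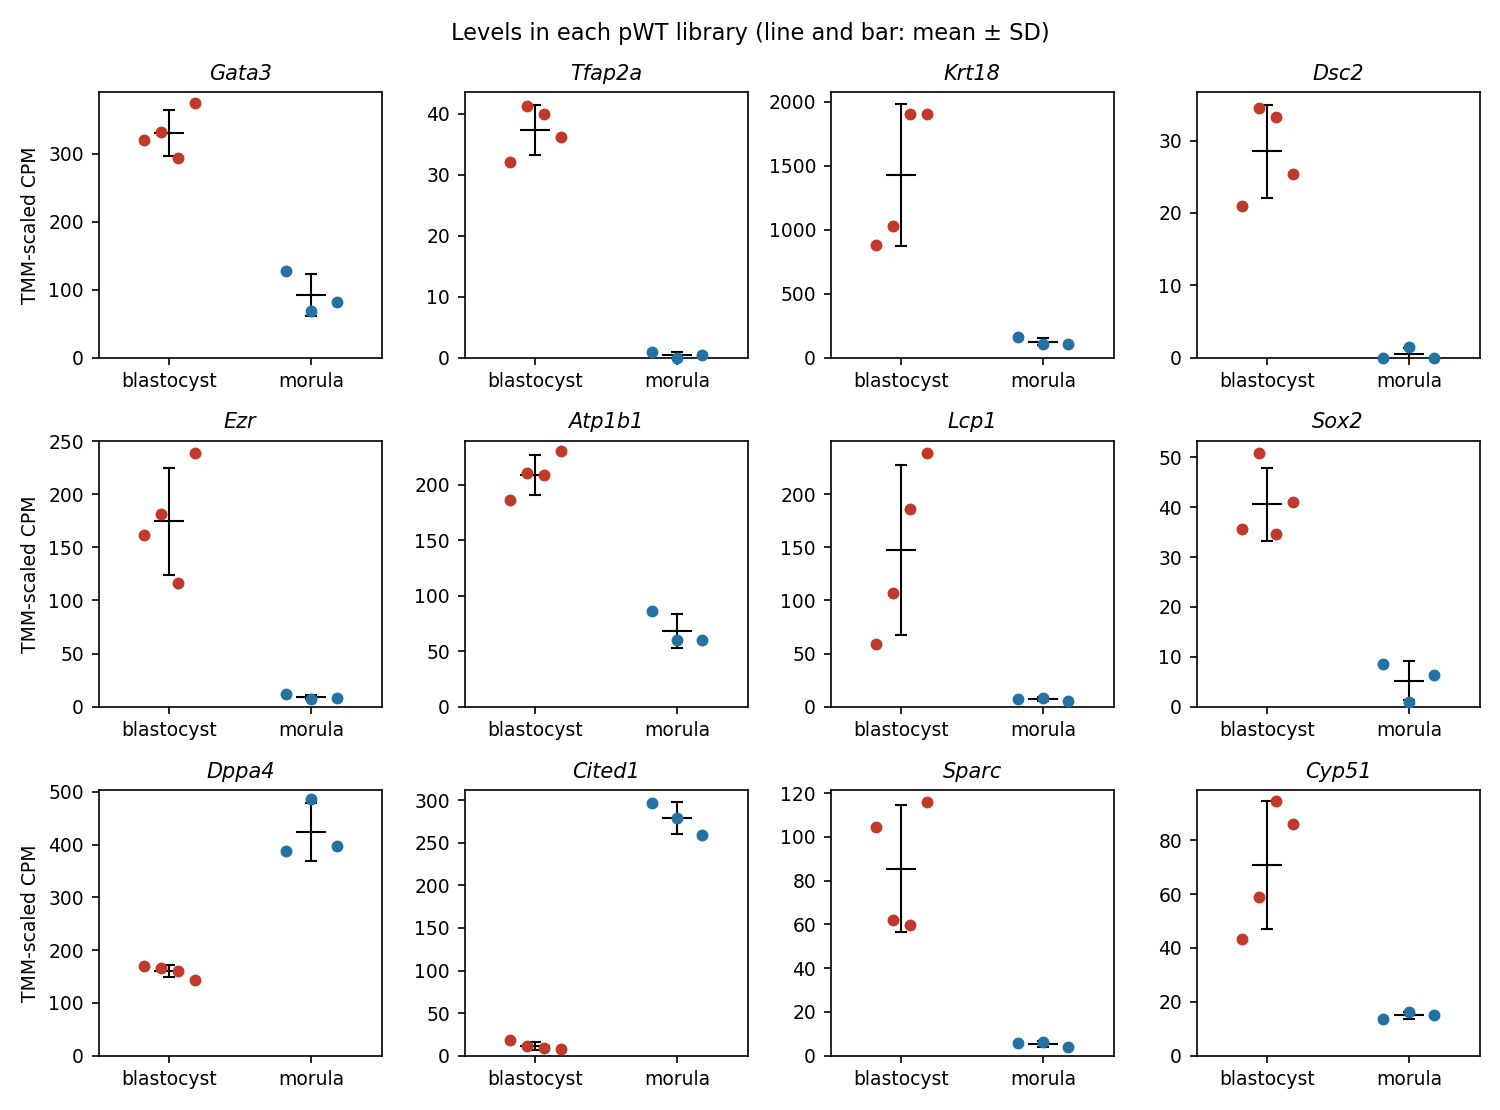
Each panel shows TMM-scaled CPM of 1 gene in the 4 pWT blastocyst libraries (red, left) and the 3 morula libraries (blue, right), with the mean as a line and the SD as a bar. In the 10 rising genes each blastocyst lies above each morula, and in Dppa4 and Cited1 each lies below.

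The pluripotency genes of the inner cell mass had no common direction: 4 of 23 tested (26 listed) rose, 5 fell and the median log2 fold change was −0.01, beside 0.14 over all genes. Without blastocyst library 1, 2 or 4 or morula library 1 there were 2 rises. Sox2, which marks inner cells, was the exception among core factors, with 35.7, 50.8, 34.7 and 41.1 CPM in blastocysts, against 8.46, 0.863 and 6.33 CPM in morulae (log2 fold change 2.95 ± 0.59, edgeR adjusted p = 0.00417), a stable call with no overlap. Nanog had 306, 282, 311 and 164 CPM in blastocysts and 693, 228 and 406 CPM in morulae, and did not pass (log2 fold change -0.72 ± 0.32, edgeR adjusted p = 0.129). Pou5f1, the octamer factor Oct4, had 15.8, 10.9, 10.99 and 13.4 CPM in blastocysts and 42.9, 14.6 and 28.3 CPM in morulae, just short of the threshold (log2 fold change -1.15 ± 0.40, edgeR adjusted p = 0.0562). The ranges of both genes overlapped, and Pou5f1 has processed copies whose reads may be split. Klf4 (log2 fold change 0.49 ± 0.29, adjusted p = 0.252), Esrrb (0.48 ± 0.32, adjusted p = 0.304) and Tfcp2l1 (-0.01 ± 0.20, adjusted p = 0.966), factors of naive pluripotency, did not pass.

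The 5 members that fell were stable calls. Dppa4 fell to 170.2, 165, 161 and 143 CPM in blastocysts, against 387, 486 and 397 CPM in morulae (log2 fold change -1.397 ± 0.17, edgeR adjusted p = 2.58e-04). Its partner Dppa2, with which it primes genes of early cleavage, fell to 350.1, 391, 443 and 309.8 CPM in blastocysts, against 736, 881 and 828 CPM in morulae (log2 fold change -1.12 ± 0.17, edgeR adjusted p = 9.63e-04). Neither gene overlapped between the stages. Spic, an ETS factor (log2 fold change -1.63 ± 0.36, adjusted p = 0.00724), Tdh, the threonine dehydrogenase of stem cells (-1.21 ± 0.30, adjusted p = 0.0132), and Nr5a2, an orphan nuclear receptor (-1.45 ± 0.35, adjusted p = 0.0122), fell as well, Nr5a2 with 1 morula below the highest blastocyst. Gdf3 (log2 fold change 1.47 ± 0.39, adjusted p = 0.0186) and Tdgf1 (1.02 ± 0.30, adjusted p = 0.0302), a TGF-beta ligand and its co-receptor, rose, but lost the call without blastocyst library 1 in Gdf3 and without blastocyst library 2 or 4 or morula library 1 or 3 in Tdgf1.

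Of 19 primitive endoderm genes tested (26 listed), 10 rose and 1 fell, with a median log2 fold change of 1.96. Of the rises 5 were stable, and 5 members were higher without blastocyst library 1 or without blastocyst library 4, and 6 without morula library 1. There were 2 falls without blastocyst library 3. The basement membrane and secretory genes led. Sparc, a matrix glycoprotein, stood at 104, 62.05, 59.5 and 116 CPM in blastocysts, against 6.01, 6.04 and 3.88 CPM in morulae (log2 fold change 4.03 ± 0.37, edgeR adjusted p = 6.97e-05). Col4a1, a type IV collagen chain, had 84.8, 63.1, 35.3 and 74.2 CPM in blastocysts, against 30.98, 16.5 and 18.04 CPM in morulae (log2 fold change 1.57 ± 0.36, edgeR adjusted p = 0.00837). In both, library 3 was low among the blastocysts and yet above every morula. Lama1, a laminin chain, was at 0 in all morulae and stood at 1.65, 12.5, 3.04 and 15.7 CPM in blastocysts, a mean at least 104-fold higher (edgeR adjusted p = 0.00329). Serpinh1, the collagen chaperone, was also at 0 in morulae, with 13.02, 11.5, 1.52 and 17.9 CPM in blastocysts, a mean at least 139-fold higher (edgeR adjusted p = 0.00173). Apoe, an apolipoprotein, rose too (log2 fold change 2.302 ± 0.34, adjusted p = 8.51e-04).

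Among the transcription factors and receptors of the lineage the picture was mixed. Gata6, the factor that starts it, had 255, 268, 209 and 247 CPM in blastocysts and 240.4, 187 and 147 CPM in morulae, overlapping levels that did not pass (log2 fold change 0.37 ± 0.20, edgeR adjusted p = 0.209). Sox17 had 15.8, 6.44, 0 and 14.5 CPM in blastocysts, against 0, 0 and 0.317 CPM in morulae, and passed (log2 fold change 6.31 ± 1.82, edgeR adjusted p = 0.0265) although blastocyst library 3 was at 0. Its call was lost, or the gene was no longer tested, without blastocyst library 1, 2 or 4 or morula library 1 or 2. Pdgfra, the receptor that marks the lineage, rose (log2 fold change 1.88 ± 0.52, adjusted p = 0.0215), a call lost without blastocyst library 1 or 4 or morula library 1, and Gata4 did not pass (2.63 ± 1.83, adjusted p = 0.329). Cited1, a transcriptional co-activator, fell furthest on this list, to 18.04, 10.8, 8.94 and 8.41 CPM in blastocysts, against 297, 279.7 and 259 CPM in morulae (log2 fold change -4.57 ± 0.28, edgeR adjusted p = 8.57e-06), and its groups were far apart.

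FGF and ERK signalling genes rose in 9 of 17 tested members (18 listed), 6 of them stably, and none fell. The receptors Fgfr1 and Fgfr2, through which FGF acts in the preimplantation embryo, were both higher. Fgfr2 had 83.7, 104, 68.1 and 98.9 CPM in blastocysts, against 48.7, 26.4 and 23.3 CPM in morulae (log2 fold change 1.46 ± 0.30, edgeR adjusted p = 0.00508). Fgfr1 had 51.5, 51.9, 42.3 and 55.3 CPM in blastocysts, against 27.5, 23.2 and 12.9 CPM in morulae (log2 fold change 1.26 ± 0.31, edgeR adjusted p = 0.0122). All blastocysts lay above all morulae for the 2 receptors. The feedback inhibitors that ERK activity induces rose with them, Dusp6 at 27.03, 32.6, 51.5 and 28.8 CPM in blastocysts, against 7.58, 4.81 and 3.799 CPM in morulae (log2 fold change 2.698 ± 0.41, edgeR adjusted p = 9.05e-04), and Spry2 (log2 fold change 1.07 ± 0.19, adjusted p = 0.00228). Fgfbp1, which frees FGFs from matrix, had a log2 fold change of 3.16 ± 0.47, adjusted p = 8.13e-04. The ligand Fgf4, made by epiblast cells, did not pass, with 4.13, 12.3, 11.9 and 15.96 CPM in blastocysts and 6.94, 5.92 and 8.55 CPM in morulae (log2 fold change 0.64 ± 0.56, edgeR adjusted p = 0.443).

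The Hippo pathway showed no common direction, with 3 rises and 3 falls among 21 tested members (25 listed). There was 1 fall without blastocyst library 4 or without morula library 2. Its TEAD factors parted. Tead1 rose to 43.8, 53.6, 45.3 and 51.9 CPM in blastocysts, against 9.801, 5.67 and 9.65 CPM in morulae (log2 fold change 2.54 ± 0.32, edgeR adjusted p = 3.17e-04), and Tead2 rose with it (log2 fold change 2.63 ± 0.54, adjusted p = 0.00485), both stably, whereas Tead4 fell, as given above. The co-activator Yap1 did not pass (log2 fold change 0.31 ± 0.26, adjusted p = 0.423), and its relative Wwtr1, or TAZ, fell (-0.71 ± 0.20, adjusted p = 0.02198), a call lost without blastocyst library 1 or 4 or morula library 2. The targets Ccn1 (log2 fold change 0.87 ± 0.59, adjusted p = 0.321) and Ccn2 (-0.88 ± 0.58, adjusted p = 0.303) did not pass.

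Transcripts that the oocyte supplies fell more often than they rose. Of 18 tested (31 listed), 5 fell and 1 rose, with a median log2 fold change of −1.39, and there were 2 rises without morula library 1. Dppa3, which protects methylation of the maternal genome after fertilization, fell to 3959, 3593, 5114 and 2556 CPM in blastocysts, against 9017, 15822 and 11351 CPM in morulae (log2 fold change -1.66 ± 0.24, edgeR adjusted p = 6.902e-04), with no overlap. Omt2a, an oocyte transcript, was down to 0.207, 0.203, 0.357 and 0.356 CPM in blastocysts, against 7.99, 12.1 and 2.45 CPM in morulae (log2 fold change -4.69 ± 0.94, edgeR adjusted p = 0.00445), after 9099, 31487, 37705 and 23238 CPM in 2C embryos. Khdc3, part of the subcortical maternal complex, fell (log2 fold change -1.0003 ± 0.16, adjusted p = 0.00123), while Ooep, a partner in that complex, rose to 45.3, 45.3, 86.9 and 48.3 CPM in blastocysts, against 11.96, 14.3 and 7.36 CPM in morulae (log2 fold change 2.34 ± 0.36, edgeR adjusted p = 0.001001). Both calls were stable. Of 20 transcripts of the 2-cell stage listed, 4 had enough reads to be tested and 3 fell. A gene that is at 0 in blastocysts could enter the test only through the morulae. Obox6, a homeobox gene of early cleavage, fell to 0.672, 4.61, 4.02 and 2.14 CPM in blastocysts, against 350.2, 1063 and 229.7 CPM in morulae (log2 fold change -7.604 ± 0.69, edgeR adjusted p = 6.97e-05). Tcstv3 was at 0 in all blastocysts, against 6.59, 14.1 and 6.89 CPM in morulae (edgeR adjusted p = 0.00118). By a floor of 3 counts over the 4 blastocyst libraries, it was at least 181-fold below the morula mean. Obox and Tcstv genes have near-identical copies, so their reads may be split.

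**Figure D3:**
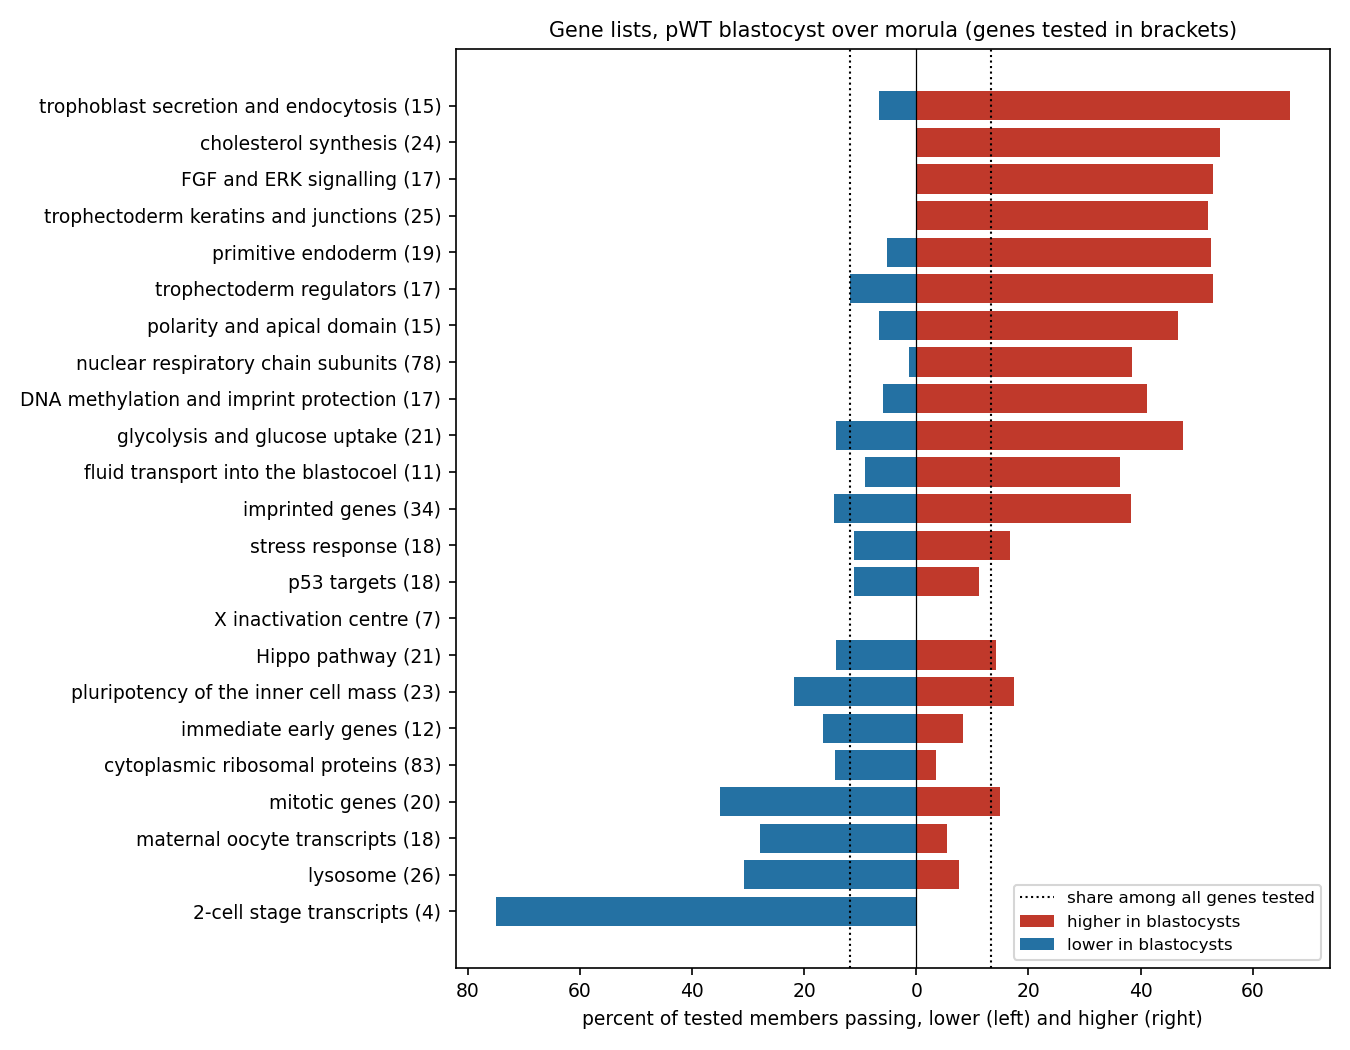
Bars give the percent of tested members higher (right, red) and lower (left, blue) in pWT blastocysts than in morulae for 23 gene lists, with the number tested in brackets and dotted lines at the shares among all genes tested, 13.4% and 11.8%. Trophoblast secretion, cholesterol synthesis, FGF signalling, trophectoderm regulator, primitive endoderm and junction lists reach far past the right line. The 2-cell, mitotic, lysosome and maternal lists reach furthest past the left one.

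Cholesterol synthesis genes rose and did not fall: 13 of 24 tested members (25 listed) were higher and none lower, with a median log2 fold change of 1.27 and 12 stable calls. Srebf2, the transcription factor that senses low sterol, stood at 30.5, 53.2, 42.4 and 51.8 CPM in blastocysts, against 3.27, 0.617 and 5.38 CPM in morulae (log2 fold change 3.82 ± 0.58, edgeR adjusted p = 9.696e-04). Cyp51, which removes a methyl group from lanosterol, had 43.3, 58.8, 94.6 and 86.2 CPM in blastocysts, against 13.7, 16.3 and 15.04 CPM in morulae (log2 fold change 2.25 ± 0.32, edgeR adjusted p = 6.83e-04). Neither overlapped between the stages, and blastocyst library 1 was the lowest for both. Other members that rose were Hmgcs1 (log2 fold change 1.75 ± 0.31, adjusted p = 0.00224), Mvk (2.63 ± 0.50, adjusted p = 0.00309), Pmvk (2.06 ± 0.26, adjusted p = 3.44e-04), Sqle (1.52 ± 0.30, adjusted p = 0.00393), Msmo1 (1.23 ± 0.28, adjusted p = 0.00942) and Nsdhl (2.64 ± 0.38, adjusted p = 6.91e-04). Fdps (log2 fold change -0.05 ± 0.31, adjusted p = 0.917), Fdft1 (0.30 ± 0.29, adjusted p = 0.492) and Dhcr7 (0.19 ± 0.34, adjusted p = 0.723) of the same route did not pass.

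The promoter of Hmgcs1, the synthase at the head of the pathway, is shown as the 1 of 9 windows of rising members that held TCACNCCAC, a form of the sterol regulatory element (RefSeq, GRCm38.p6, chr13:119690101-119690350, plus strand, match in capitals, beginning 137 bases before the start). This motif was picked after the rise of the pathway was known.
Hmgcs1: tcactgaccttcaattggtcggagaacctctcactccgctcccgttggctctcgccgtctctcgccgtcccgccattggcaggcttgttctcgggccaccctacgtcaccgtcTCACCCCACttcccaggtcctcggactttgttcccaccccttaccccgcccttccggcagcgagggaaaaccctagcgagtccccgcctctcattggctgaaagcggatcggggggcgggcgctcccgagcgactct
On either strand the motif was in 1.65% of windows of higher genes, 0.666% of those of lower genes, 0.986% of those of all tested genes and 1.04% of all windows.

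Genes of glycolysis and of the respiratory chain rose more often than they fell. Of 21 glycolysis genes tested (22 listed), 10 rose and 3 fell, with a median log2 fold change of 1.04. Tpi1, the triose phosphate isomerase, stood at 229, 201, 194 and 240.2 CPM in blastocysts, against 39.5, 12.2 and 37.2 CPM in morulae (log2 fold change 2.87 ± 0.36, edgeR adjusted p = 3.17e-04). The hexokinases, which trap glucose in the cell, moved apart. Hk2 rose to 332, 293, 302 and 473 CPM in blastocysts, against 123, 134 and 61.6 CPM in morulae (log2 fold change 1.74 ± 0.29, edgeR adjusted p = 0.00165). Hk1 fell to 17.1, 14.99, 11.8 and 9.19 CPM in blastocysts, against 71.3, 54.6 and 19.5 CPM in morulae (log2 fold change -1.85 ± 0.42, edgeR adjusted p = 0.00828). Both calls were stable with no overlap. Gpi1 (log2 fold change 1.32 ± 0.23, adjusted p = 0.00183), Aldoa (0.93 ± 0.19, adjusted p = 0.00443), Pkm (0.97 ± 0.23, adjusted p = 0.0109) and Eno1 (1.16 ± 0.28, adjusted p = 0.0121) rose, and Pfkfb3, which makes the activator of phosphofructokinase, fell (-3.92 ± 0.86, adjusted p = 0.00744). Gapdh and Ldha, which have many processed copies, also passed upwards and are uncertain for that reason.

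Nuclear genes of the respiratory chain rose in 30 of 78 tested members (81 listed) and fell in 1, with a median log2 fold change of 0.56 and 22 stable rises. The count of falls was 0 without blastocyst library 1 or 2 or morula library 2 or 3, and 2 without blastocyst library 3 or morula library 1. Cox7b, a subunit of cytochrome oxidase, had 503, 591, 547 and 544 CPM in blastocysts, against 156, 187 and 166 CPM in morulae (log2 fold change 1.699 ± 0.17, edgeR adjusted p = 9.79e-05). Sdha, the catalytic subunit of complex II, had 266, 215, 248 and 198 CPM in blastocysts, against 75.8, 82.5 and 97.02 CPM in morulae (log2 fold change 1.45 ± 0.19, edgeR adjusted p = 4.74e-04). Both groups were tight and apart, as they were for Atp5g3, a ring subunit of ATP synthase (log2 fold change 1.23 ± 0.16, adjusted p = 4.005e-04). Of 83 cytoplasmic ribosomal protein genes tested (84 listed), 12 fell, a share near the 11.8% of all genes, and 3 rose, with a median log2 fold change of −0.19 and 4 stable falls. Without blastocyst library 2 or without blastocyst library 4 there were 5 falls, and without morula library 2 there were 6. Rps28 was among the rises (log2 fold change 0.75 ± 0.15, adjusted p = 0.00433). Processed copies of these genes can take reads too.

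Lysosomal genes fell in 8 of 26 tested members and rose in 2, with a median log2 fold change of −0.38. The count of falls was 5 without blastocyst library 1, without blastocyst library 2 or without morula library 3. There was 1 rise without blastocyst library 1, 2 or 4 or morula library 1 or 2, and there were 4 without morula library 3. Ctsz, a cathepsin, fell to 26.5, 43.1, 22.3 and 21.3 CPM in blastocysts, against 167, 216 and 164 CPM in morulae (log2 fold change -2.68 ± 0.28, edgeR adjusted p = 1.12e-04). Ctsa, the protective cathepsin A, fell to 131, 166, 159 and 129.9 CPM in blastocysts, against 386, 422 and 598 CPM in morulae (log2 fold change -1.67 ± 0.20, edgeR adjusted p = 2.66e-04). The lowest morula was above the highest blastocyst in both. Npc2, which carries cholesterol out of lysosomes, fell (log2 fold change -0.78 ± 0.17, adjusted p = 0.00763), and Psap, the precursor of the saposins, rose (1.16 ± 0.29, adjusted p = 0.0136).

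Genes that write, erase or protect DNA methylation rose in 7 of 17 tested members, 6 of them stably, and fell in 1, Dppa3. Uhrf1, which brings the maintenance methyltransferase to newly copied DNA, stood at 94.1, 112, 90.4 and 164 CPM in blastocysts, against 28.6, 13.4 and 20.02 CPM in morulae (log2 fold change 2.49 ± 0.33, edgeR adjusted p = 4.32e-04). Dnmt1, that methyltransferase, had 46.2, 34.9, 48.2 and 48.7 CPM in blastocysts, against 20.6, 21.7 and 14.2 CPM in morulae (log2 fold change 1.25 ± 0.29, edgeR adjusted p = 0.00906). Dnmt3b, a de novo enzyme, had 118, 126, 135 and 161 CPM in blastocysts, against 88.6, 61.2 and 72.8 CPM in morulae (log2 fold change 0.88 ± 0.21, edgeR adjusted p = 0.0117). None of these overlapped. Tet1, which oxidizes methylcytosine, rose (log2 fold change 1.098 ± 0.20, adjusted p = 0.00228), and so did Tdg, which excises the oxidized base (3.79 ± 0.87, adjusted p = 0.00895). Zfp57, a guardian of imprints, rose (2.19 ± 0.60, adjusted p = 0.0212), a call lost without blastocyst library 3 or 4 or morula library 1.

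Imprinted genes, expressed from 1 parental copy, changed in both directions: 13 of 34 tested (45 listed) rose and 5 fell, with a median log2 fold change of 1.19. Leaving out blastocyst library 1 or 2 left 7 rises, and leaving out blastocyst library 4 left 8. Sfmbt2, a Polycomb gene expressed from the paternal copy and needed for trophoblast, stood at 54.7, 49.8, 51.7 and 55.7 CPM in blastocysts, against 7.47, 7.89 and 9.02 CPM in morulae (log2 fold change 2.71 ± 0.28, edgeR adjusted p = 1.102e-04). Slc38a4, a paternally expressed amino acid transporter, had 76.8, 114, 135 and 89.02 CPM in blastocysts, against 27.1, 11.96 and 4.35 CPM in morulae (log2 fold change 2.85 ± 0.50, edgeR adjusted p = 0.002202). Both were separated by stage, and Sfmbt2 varied least. Ascl2, a maternally expressed factor of the ectoplacental cone, was at 0 in morulae, with 5.84, 2.85, 10.6 and 5.56 CPM in blastocysts, a mean at least 78.6-fold higher (edgeR adjusted p = 0.002203). Igf2r, the maternally expressed receptor that clears IGF2, fell to 131, 113, 116 and 121 CPM in blastocysts, against 265, 228 and 219 CPM in morulae (log2 fold change -0.97 ± 0.17, edgeR adjusted p = 0.001997). Airn, the antisense transcript of that locus, was at 0 in morulae and at 2.17, 4.001, 1.25 and 0.855 CPM in blastocysts (edgeR adjusted p = 0.0158), where reads of both strands cannot be told apart unless counting used strand, which the sources do not state. H19 (1.86, 0.678, 0 and 15.3 CPM in blastocysts, 0 in morulae) and Igf2 (log2 fold change 4.37 ± 1.36, adjusted p = 0.0364) passed, but H19 lost its call without any 1 of 6 libraries and Igf2 without any 1 blastocyst library.

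The X inactivation centre had no called gene among 7 tested (10 listed). Tsx, a gene of that region, came nearest, with 11.1, 11.5, 6.88 and 36.3 CPM in blastocysts and 3.73, 6.54 and 1.35 CPM in morulae (log2 fold change 2.12 ± 0.74, edgeR adjusted p = 0.0551). Without blastocyst library 3 there was 1 call, without morula library 2 there were 2 and without morula library 3 there was 1. Xist, the RNA that coats the inactive X, had 367, 431, 299 and 519 CPM in blastocysts and 356, 216 and 282 CPM in morulae and did not pass (log2 fold change 0.52 ± 0.24, edgeR adjusted p = 0.1299). Tsix overlaps it on the other strand and had a like change (log2 fold change 0.48 ± 0.23, adjusted p = 0.1501), which without strand is not a separate value.

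Genes of mitosis split, with 7 of 20 lower and 3 higher. There were 3 or 4 falls without blastocyst library 1, 2 or 4 or morula library 2, and 1 rise without blastocyst library 1 or 4 or morula library 1. Ccnb1, the cyclin of entry into mitosis, fell to 459, 412, 509 and 352 CPM in blastocysts, against 748, 1621 and 1279.5 CPM in morulae (log2 fold change -1.49 ± 0.24, edgeR adjusted p = 0.00145). Mki67, a protein of cycling cells, rose to 91.5, 106, 90.98 and 115 CPM in blastocysts, against 48.9, 43.7 and 33.7 CPM in morulae (log2 fold change 1.28 ± 0.23, edgeR adjusted p = 0.002203). Both were stable and did not overlap. Ccna2 (log2 fold change -0.73 ± 0.17, adjusted p = 0.00951) and Aurka (-0.72 ± 0.18, adjusted p = 0.0133) fell stably. Of 18 targets of p53 tested (20 listed), 2 rose and 2 fell, with 6 rises without morula library 2, 1 rise without blastocyst library 4 and 1 fall without blastocyst library 2. The stress list had 3 rises and 2 falls among 18 tested (20 listed), with the heat shock co-chaperone Dnajb1 lower (log2 fold change -1.45 ± 0.18, adjusted p = 3.37e-04) and the chaperone Hsph1 higher (0.96 ± 0.18, adjusted p = 0.00352), and 1 fall without blastocyst library 3 or 4. Among 12 immediate early genes tested (16 listed), 1 rose and 2 fell, none stably. The rise was lost without blastocyst library 4, and there were 2 rises without morula library 1 or 3. There was 1 fall without blastocyst library 1 or 3 or morula library 2, and none without blastocyst library 2.

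Ranked by fitted fold change, the largest rises among well expressed genes were of genes at 0 in all 3 morulae. Such genes passed the filter only through the blastocysts, and their fitted fold change depends on the prior count. Their place at the top is therefore set in part by the ranking itself. Adh1, an alcohol dehydrogenase that also oxidizes retinol (chromosome 3, 138260991–138290698), stood at 115, 72.1, 357 and 357 CPM in blastocysts, a mean at least 2843-fold higher (edgeR adjusted p = 1.11e-04). Tmprss2, a membrane serine protease (chromosome 16, 97564682–97611195), stood at 48.7, 59.6, 73.4 and 82.2 CPM in blastocysts, a mean at least 833-fold higher (edgeR adjusted p = 1.24e-05). The 2 libraries with most Adh1 were 3 and 4, while Tmprss2 was more even. In the mean, Tbx15, a T-box factor, reached at least 379.9-fold and Gpa33, an epithelial surface antigen, at least 165-fold on the same floor. Among the largest falls were Obox6, given above, and Trim43b, a gene with close copies. Trim43b stood at 1.91, 5.49, 22.6 and 0.855 CPM in blastocysts, against 1395, 1898 and 839.7 CPM in morulae (log2 fold change -7.52 ± 0.91, edgeR adjusted p = 2.59e-04). Abcb5, a membrane transporter, and Inpp4b, a phosphoinositide phosphatase, were at 0 in all blastocysts and at least 355-fold and 236-fold below their morula means. Of the most abundant genes that fell, Timd2, a ferritin receptor of the TIM family, had 1102, 1071, 1206 and 778 CPM in blastocysts, against 5559.8, 4637 and 7637 CPM in morulae (log2 fold change -2.51 ± 0.21, edgeR adjusted p = 4.45e-05). Hprt, the purine salvage enzyme on the X chromosome, had 1604, 1335, 1168 and 948 CPM in blastocysts, against 5026, 7339.6 and 7262 CPM in morulae (log2 fold change -2.37 ± 0.21, edgeR adjusted p = 6.97e-05). In this pair every morula stood well above every blastocyst. Among abundant genes that rose were Actb, cytoplasmic actin (log2 fold change 1.02 ± 0.21, adjusted p = 0.00473), and Eef1a1, a translation elongation factor (0.79 ± 0.15, adjusted p = 0.00278), which are often taken as constant.

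The 2C libraries, deposited in another table and scaled here together with these, add an earlier stage. They were not tested against the others, and levels across the 2 tables rest on that common scaling. Of the 1681 genes higher in blastocysts, 783 (46.6%) had their lowest mean at 2C and were higher at each later stage. The other 898 (53.4%) had a morula mean at or below that at 2C, ties included. Among the 1681, 238 were at 0 in all 2C libraries and 275 in all morulae, and a gene at 0 at both stages is a tie. The median gene of these 1681 stood at 6.29 CPM at 2C, 7.01 CPM in morulae and 30.6 CPM in blastocysts, and 358 (21.3%) had more at 2C than in blastocysts. Of the 1488 lower genes, 408 (27.4%) fell at each step and 1080 (72.6%) peaked in morulae, with medians of 57.0, 124.0 and 53.7 CPM over the 3 stages. Over all 12565 genes tested, called or not, 58.8% had a 2C mean at or below that of morulae and 42.1% one at or above it. The calls were made with the same morula values, which by itself raises the share of lower genes that peak there and of higher genes that are lowest, or tied lowest, there.

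Single genes show each course. Krt8 climbed, with 7.83, 0, 0 and 0 CPM at 2C before the morula and blastocyst values given above. Fgfr2 did so too, with 10.7, 0, 0 and 2.25 CPM at 2C. Timd2 peaked in morulae after 61.9, 468, 0 and 80.98 CPM at 2C, and Hprt after 822, 1194, 806 and 1731 CPM. Dppa3 and Ccnb1 declined throughout, with 10332, 29575, 16836 and 18042 CPM and 5742, 3065, 1751 and 4358 CPM at 2C. Some genes dipped in the morula, of which Ildr1 and Il6st were chosen after their values were seen. Ildr1, a receptor of tricellular junctions, had 60.8, 19.7, 0.0583 and 41.1 CPM at 2C, 0 in all morulae and 25.01, 29.97, 26.5 and 18.6 CPM in blastocysts. Il6st, the gp130 receptor of LIF and other cytokines, had 53.2, 18.5, 42.1 and 12.6 CPM at 2C, 0 in all morulae and 14.4, 14.99, 10.3 and 20.8 CPM in blastocysts. Zfp57 had 796, 349.99, 527 and 497 CPM at 2C, 2.33, 5.06 and 7.597 CPM in morulae and 12.4, 11.4, 31.6 and 35.3 CPM in blastocysts. In the last 3 the level came back after the morula, though for Zfp57 to a small part of that at 2C.

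**Figure D4:**
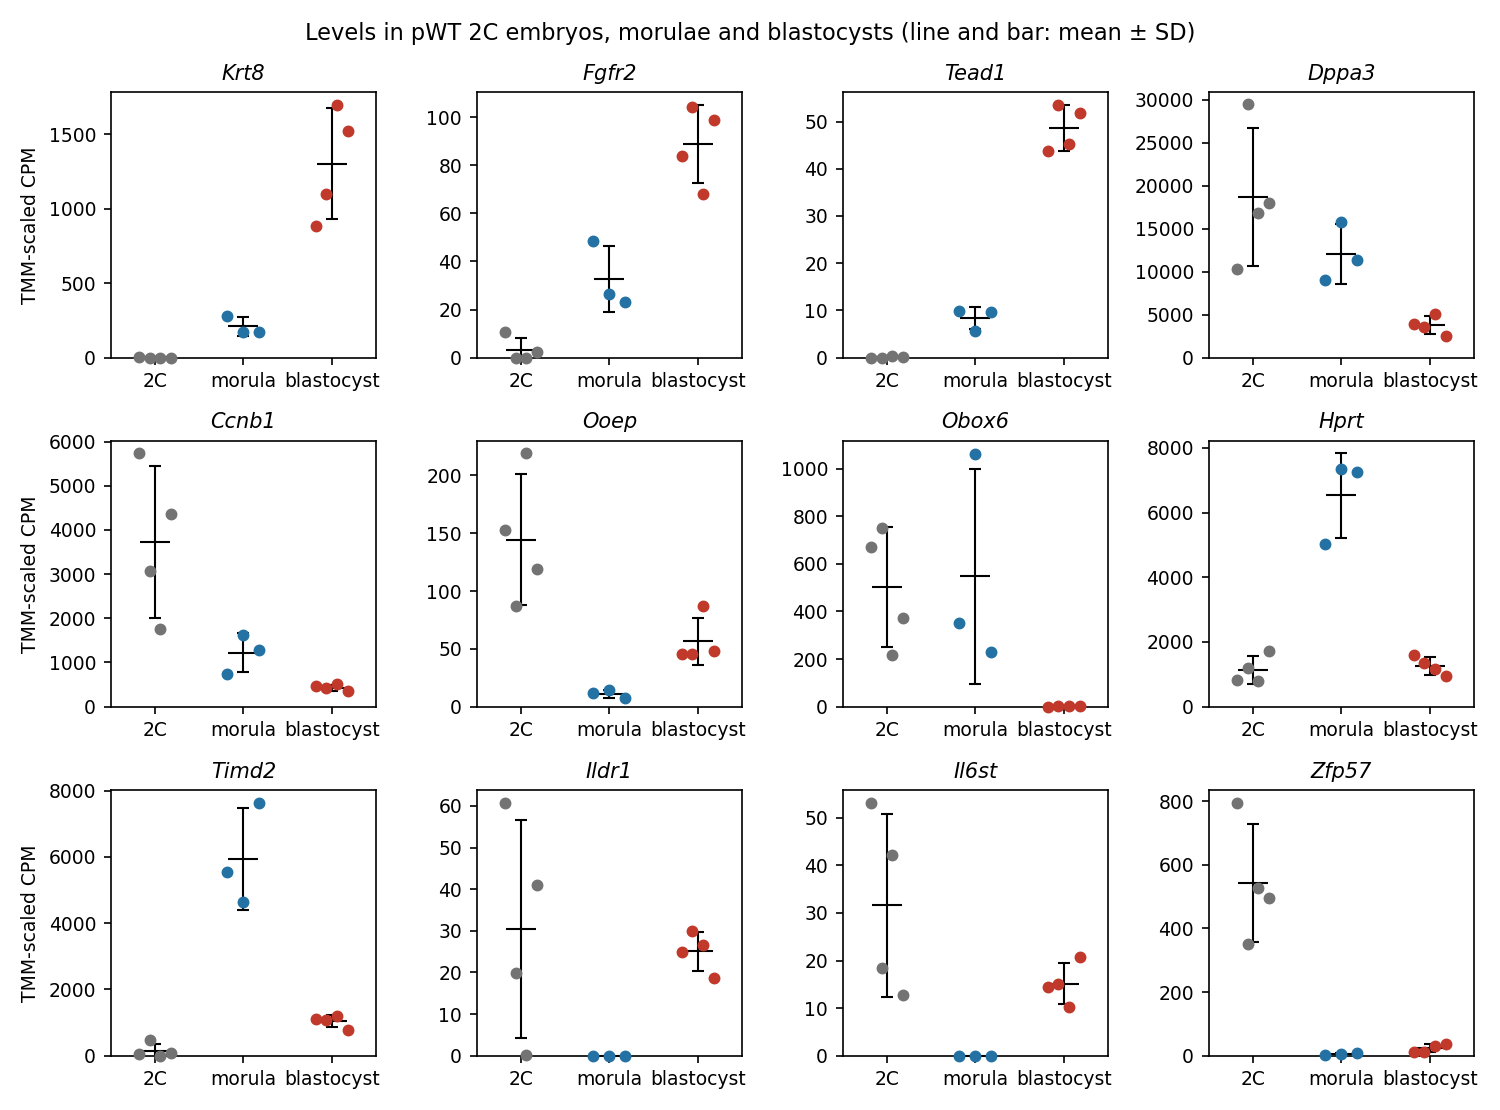
Each panel shows TMM-scaled CPM of 1 gene in the 4 pWT 2C (grey), 3 morula (blue) and 4 blastocyst (red) libraries, with the mean as a line and the SD as a bar. Krt8, Fgfr2 and Tead1 climb, Dppa3 and Ccnb1 decline, Hprt and Timd2 peak in morulae, and Ildr1, Il6st, Ooep and Zfp57 are lowest there.

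In some of these gene groups 1 blastocyst library was often the highest or the lowest of the 4. Of the 13 cholesterol genes that rose, blastocyst library 1 was the lowest of the 4 in all 13 and library 3 the highest in 11. In the respiratory chain list library 3 was the highest in 22 of 30 and library 1 the lowest in 14. For the 10 primitive endoderm genes that rose, library 3 was the lowest in 8 and library 4 the highest in 7. Of the 10 trophoblast secretion genes, library 1 was the lowest in 8. Among the 9 trophectoderm regulators, library 4 was the highest in 5 and library 1 the lowest in 5. Other lists were more scattered. Of 10 glycolysis genes that rose, libraries 1 to 4 were the highest in 2, 3, 2 and 3, and of 13 imprinted genes in 1, 5, 4 and 3. These counts are descriptions of single libraries, with no test. They were not made over all genes, so a tendency of a whole library cannot be told from a trait of a list.

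Whole chromosomes also stood apart in single libraries. Over 554 genes of chromosome 4 with a mean of at least 10 CPM, the median log2 deviation from the other libraries of the stage was −0.329, 0.363, 0.263 and −0.306 in blastocyst libraries 1 to 4, and between −0.058 and 0.045 in morulae. Over 358 genes of chromosome 10 it was 0.501 in blastocyst library 3, against −0.133 to −0.198 in the other blastocysts. Over 233 genes of chromosome X it was 0.288 in morula library 2 and −0.185 in morula library 3. Chromosome 4 held 16.9% higher and 6.26% lower genes, and chromosome 10 held 16.3% and 7.80%, against 13.4% and 11.8% of all genes. Shares also varied on other chromosomes. Chromosome 15 held 17.5% higher and 11.8% lower genes, chromosome 18 held 16.0% and 11.4%, and chromosome 12 held 7.69% and 16.7%. Some of these deviated too. The median deviation of chromosome 12 was 0.115 and −0.147 in blastocyst libraries 1 and 4. That of chromosome 18 was 0.16 and −0.21 in morula libraries 1 and 2. Chromosome 15 kept between −0.079 and 0.07 in blastocysts. Of the called list members, Fabp3, Sfn, Gjb5 and Eno1 lie on chromosome 4, and Dusp6, Hk1, Psap, Tet1, Tdg, Spic and Plagl1 on chromosome 10. Without the genes of both chromosomes 1539 rose and 1352 fell, of 11076. What part the chromosome deviations have in these genes' results was not tested.

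**Figure D5:**
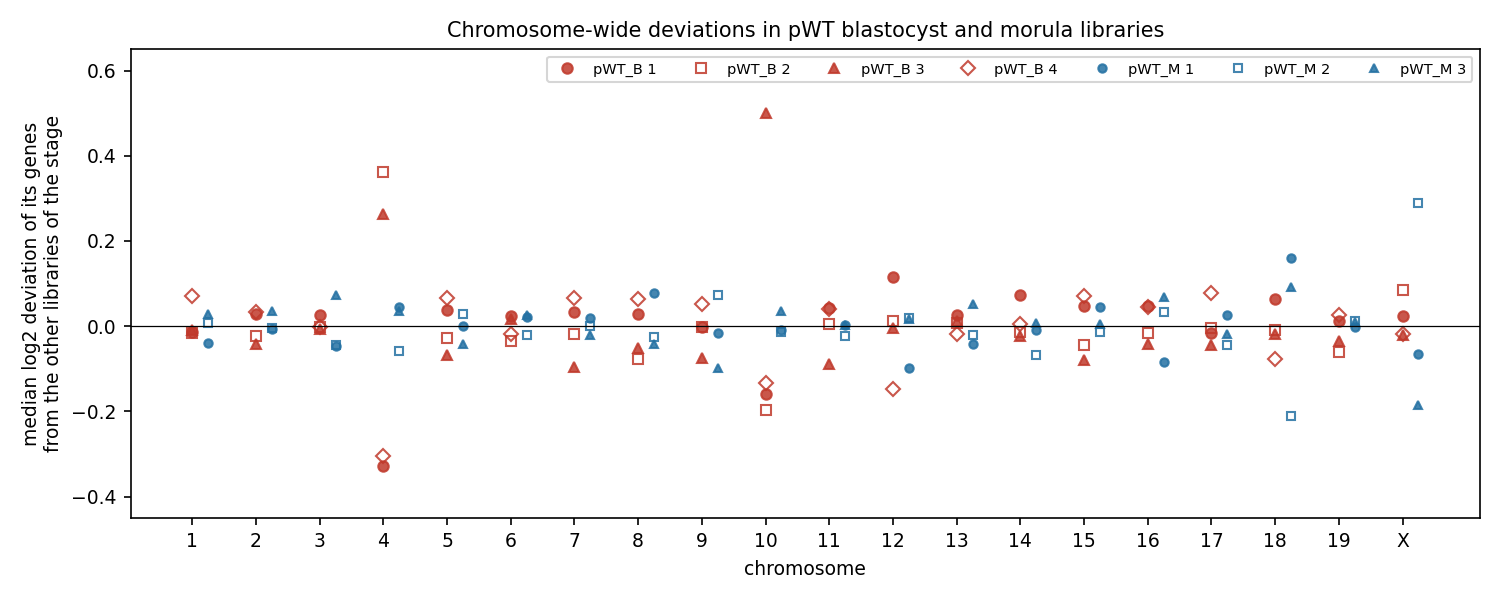
For each chromosome (horizontal axis), a symbol gives the median log2 deviation of its genes in 1 pWT library from the mean of the other libraries of its stage, in red for blastocysts and blue for morulae. Chromosome 4 splits the blastocysts into 2 high (0.363 and 0.263) and 2 low libraries (−0.329 and −0.306), and chromosome 10 sets blastocyst library 3 apart at 0.501.

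The same stage change was measured in pIR embryos, with 4 blastocyst and 4 morula libraries. There 2218 genes rose (16.2% of 13697 tested) and 1618 fell (11.8%), 28.0% in all. Of the 1681 genes that rose in pWT, 1129 (67.2%) also rose in pIR, which is 53.9% of the 2096 rises of pIR among genes tested in both. Of the 1488 that fell in pWT, 1070 (71.9%) also fell in pIR, 68.3% of 1567, and none of the called genes of pWT was called in the opposite direction. Across the 12565 genes the log2 fold changes of pWT and pIR had a Pearson r of 0.70 and a Spearman rho of 0.75. Genes are not independent replicates. The pIR values come from a fit of all 15 libraries of both stages with 1 estimate of spread.

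Most called members of several lists were called the same way in pIR. All 13 keratin and junction genes, all 13 cholesterol genes, all 11 called trophoblast secretion genes and 10 of 11 called trophectoderm regulators were so. Krt18 had a log2 fold change of 2.83 ± 0.33 in pIR (edgeR adjusted p = 7.496e-06), and Cdx2, which did not pass in pWT, had one of 2.06 ± 0.74 (edgeR adjusted p = 0.0437). The counts were 6 of 13 for glycolysis, 10 of 18 for imprinted genes, 7 of 15 for ribosomal proteins, 5 of 9 for FGF signalling, 5 of 8 for polarity, 3 of 6 for Hippo, 1 of 4 for p53 targets and 1 of 3 for immediate early genes. Whether these shares differ between lists was not tested. Eno1, for example, had a log2 fold change of 0.11 ± 0.30 in pIR (edgeR adjusted p = 0.8292), and Nanog one of -1.76 ± 0.32 (edgeR adjusted p = 6.16e-04).

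Whether a gene's stage change itself differed between the embryos was tested as pIR change minus pWT change. No gene passed in edgeR (0 of 13697 adjusted, 1101 at an unadjusted p under 0.05), and DESeq2 called 58, of which 23 had the larger value in pIR. The 3 smallest p-values in edgeR belonged to Rufy3, a regulator of neuronal and vesicle transport (difference 3.19 ± 0.55, edgeR adjusted p = 0.0551), Gcnt2, a glycosyltransferase at 0 in all pWT morulae, whose fitted value depends on the prior count (-9.61 ± 1.61, edgeR adjusted p = 0.0551), and Cdo1, a cysteine dioxygenase (-7.32 ± 1.29, edgeR adjusted p = 0.0551). For Cdx2 the difference was 1.01 ± 1.04, for Nanog -1.03 ± 0.47 and for Eno1 -1.06 ± 0.44, with adjusted p of 0.884, 0.596 and 0.568. For these genes a call in 1 kind of embryo and not in the other was therefore not shown to be a difference between them.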

How the data were processed

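RNA of 87 libraries was sequenced, of which 19 are used here. Per the submitters' processing notes, the authors used Trim Galore 0.6.6, HISAT2 2.1.0, featureCounts 1.6.4, DESeq2 and the build mm10. The authors deposited unnormalised read counts for each gene, here from 2 tables. The protocol describes a poly(A) kit and a low-input Smart-Seq2 kit, and which one made these libraries, how strand and reads with several matches were treated, and whether embryos were pooled are not given in the sources used here. From the counts, genes were filtered with filterByExpr (minimum count 10), scaled by TMM and tested with edgeR 4.0.16 in R 4.3.3 (quasi-likelihood F test, Benjamini-Hochberg adjusted p under 0.05) on the 7 pWT libraries. All adjusted p-values in the text are edgeR's unless another tool is named. The pIR contrast and the difference came from 1 fit of 15 libraries. A fold against a stage at 0 set the mean of the other stage against a floor of 3 counts over the libraries of the stage at 0. Fold changes are blastocyst over morula. The ± beside them is a standard error worked back from the test, as the log2 fold change over the square root of F. For a stage at or near 0 it depends on the prior count too. The fit was tested on simulated data. Alternatives were DESeq2 1.42.0, other scalings, no filter, GC and length corrections (25 bins), thinning, a replicate block, each library left out, and, chosen after seeing the data, chromosomes 4 and 10 left out and the pIR libraries alone. Samples with the same number in both stages deviated together only weakly, and numbers were not taken as pairs. Named genes are members of the lists, called ones and then those of smallest p, the 15 largest rises and falls without overlap at a mean of at least 10 CPM, the 5 most abundant called genes in each direction and the 6 of smallest p for the difference. The genes, lists and comparisons were chosen with earlier results of these data known. Some list members that enter the counts are not reported here by name. Positions are from GENCODE M21 (mm10) and promoters from RefSeq.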

Additional observations from a re-analysis of the deposited data

Results flagged for a closer look

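Among the 177 groups of 4 libraries looked at for a single library far from the other 3 (Dixon's test at 95%, which chance passes in about 1 group of 20), 8 had one. Blastocyst library 4 accounted for 5 of them and was high in each. It held 11.3 CPM of Elf5, with at most 1.83 CPM in the other blastocysts, 19.96 CPM of Plac1, with at most 4.88 CPM, and 249 CPM of Tdgf1, with at most 144 CPM. It also held 15.3 CPM of H19, with at most 1.86 CPM in the others, and 36.3 CPM of Tsx, with at most 11.5 CPM. Blastocyst library 3 held 86.9 CPM of Ooep, with at most 48.3 CPM in the other blastocysts, and its median deviation over chromosome 10 was 0.501, with the others at most −0.133. Krt8 was at 7.83 CPM in 2C library 1 and at 0 in the other 2C libraries.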

How the results depend on the processing

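The counts of genes called between pWT blastocysts and morulae kept within 1.5 times of 1681 higher and 1488 lower under DESeq2 (2208 and 1818), median-of-ratios scaling (1657 and 1511), no filter (1600 and 1485), GC correction (1671 and 1487), length correction (1705 and 1438), thinning to the smallest library (1664 and 1497), scaling without X-linked and ribosomal protein genes (1676 and 1509) and the pIR libraries in the same fit (1694 and 1670). With 1 library left out they ran from 1084 to 1681 higher, 1085 to 1420 lower and 2169 to 3059 in all. For pIR they ran from 1503 to 2371 higher, 1369 to 1821 lower and 2948 to 4048 in all, and the pIR libraries alone gave 1668 and 1789. For the difference between pIR and pWT, DESeq2 called 58 genes (23 higher, 35 lower), median-of-ratios scaling 1 and no filter 3, all lower, and leaving out 1 library gave 0 to 9 in all, 0 to 4 higher and 0 to 9 lower, with 9 without morula library 3 and 7 without morula library 1 of pWT. Of the 23 lists, 13 had more rises than falls, and 13 to 16 with 1 library left out. The cause of these moves was not tested.

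With the replicate number as a block, 2037 genes were called (1030 higher, 1007 lower), and 1957 (978 and 979) with the block and a GC correction. With the block, counts of list members that moved by over 1.5 times, from lists with 3 or more such calls, were 0 falls for Hippo, 2 for maternal transcripts, 1 for glycolysis, 5 for ribosomal proteins and 4 for mitosis, and 6 rises for imprinted genes and 1 for mitosis. With the GC correction added, the ribosomal count was back within 1.5 times and the fluid list held 2 rises. The length correction gave 6 falls and 5 rises of ribosomal protein genes. Lists with 0 to 2 calls moved more often: the fluid list's 1 fall was lost with no filter, the length correction, the block and without chromosomes 4 and 10, and the X inactivation centre had 1 call under 7 alternatives. Same-numbered blastocyst and morula libraries deviated with correlations of 0.050, 0.017 and 0.067. Differently numbered pairs ran from −0.053 to −0.0025 for blastocyst libraries 1 to 3, and from −0.055 to 0.039 for blastocyst library 4. The correlations of same-numbered libraries were small, and the numbers were not taken as pairs. Whether the numbers stand for pairs was not tested.

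Of 2620 values of 147 named genes under the alternatives, 2507 kept direction and side of the threshold, 80 lost it, 15 gained it and 18 turned sign. The sign turned in 8 genes with a log2 fold change near 0. With 1 library left out, Aqp3 ran from −0.177 to 0.419, Dhcr7 from −0.116 to 0.377, Fdft1 from −0.0080 to 0.436, Fdps from −0.316 to 0.160, Gja1 from −0.0630 to 0.317, Ocln from −0.362 to 0.0100, Pard6b from −0.253 to 0.0072 and Tfcp2l1 from −0.177 to 0.205. Fdps was 0.0912 with the length correction. Tfcp2l1 was 0.0985 with the GC correction, 0.0159 without chromosomes 4 and 10, 0.0187 with the replicate block and 0.125 with the block and GC correction.

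With 3 morula libraries and totals down to 7.7 M counts, genes of low level are called only when the change is large, and intervals cover counting error and the spread of these libraries only.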
